A study of Pinus pinaster with 24 samples.

Results

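The transcripts described here are the 100 of 51211 that ranked first for being low in the developing cortex of the maritime pine (Pinus pinaster) root tip and higher in the root cap, the root meristem and the developing vascular tissue. A mean level was taken for each area over its 6 libraries, in the authors' scaled counts, which they named CPM. The ranking score was the log2 ratio of the lowest of the 3 other area means to the cortex mean, with 0.5 CPM added to both, and the 100 highest scores made up the list. Because the score was built from these levels, the contrast between the cortex and the other areas is given as a description, with no test, except where the libraries that chose a list had no part in its test.

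Seedlings of 1 month grown from seed on vermiculite were kept for 3 days on a nutrient solution without nitrogen. Irrigation with 80 mL of 3 mM potassium nitrate or, as the control, 3 mM KCl followed, and root tips were frozen after 2 h. Sections of 30 µm were laser-microdissected into 4 areas named for the cap, the meristem, the cortex and the vascular tissue (the last pair still developing), so an area is a position in the section and can hold several cell types. The 8 groups are cortex with nitrate, cortex with KCl, cap with nitrate, cap with KCl, meristem with nitrate, meristem with KCl, vascular with nitrate and vascular with KCl, with 3 libraries in each. How many seedlings make up a library, and whether the numbered replicates came from separately grown plants, is not stated, so each p-value reflects only library-to-library spread, which may be technical.

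The root cap covers and protects the apex, secretes mucilage and senses gravity. Behind it the meristem supplies dividing cells, which then differentiate outward into the cortex, the ground tissue between the surface and the central cylinder, and inward into the vascular tissue that conducts water and sugars. Cells of the developing cortex elongate and vacuolate, and the cortex is crossed by nitrate on its way from the soil to the vascular tissue. Gene names were paired with 0 of the 51211 IDs in the files, so the members are described by ID, no role is given to them, and the labelled areas could not be checked against known marker genes.

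Whole reads could be recovered from every column and summed to 45262154 to 51517525 per library, and 1 read was worth 0.0171 to 0.0247 CPM. A detection limit of 3 reads corresponded to 0.0513 to 0.074 CPM, which covers counting error only. All 100 members passed the filter used for tests (at least 1 CPM in at least 3 libraries). Libraries with the same solution and experiment number deviated together across areas and are called a root-tip set below, which gives 6 sets.

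The members held 0.011% to 0.034% of the CPM in the 6 cortex libraries. In the cortex the summed level of the 100 members was 190 ± 27.4 CPM with nitrate and 199 ± 121 CPM with KCl (SD, n = 3 each). The sum was 2448 ± 779 CPM with nitrate and 2317 ± 876 CPM with KCl in the cap, 1664 ± 574 CPM with nitrate and 1860 ± 286 CPM with KCl in the meristem, and 1353 ± 133 CPM with nitrate and 1206 ± 178 CPM with KCl in the vascular area (SD, n = 3 each). The highest cortex library, KCl replicate 1 with 334 CPM, was below the lowest library of any other area, vascular KCl replicate 1 with 1028 CPM. The median member stood at 0.657 ± 0.297 CPM in the cortex, compared with 11.3 ± 4.15 CPM in the cap, 9.1 ± 2.53 CPM in the meristem and 7.59 ± 1.65 CPM in the vascular area (SD over libraries, n = 6 each). The median over all transcripts in the table lay between 3.52 and 4.14 CPM in every library. Fewer cells of a type and less RNA per cell cannot be told apart in these pooled areas.

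**Figure D1:**
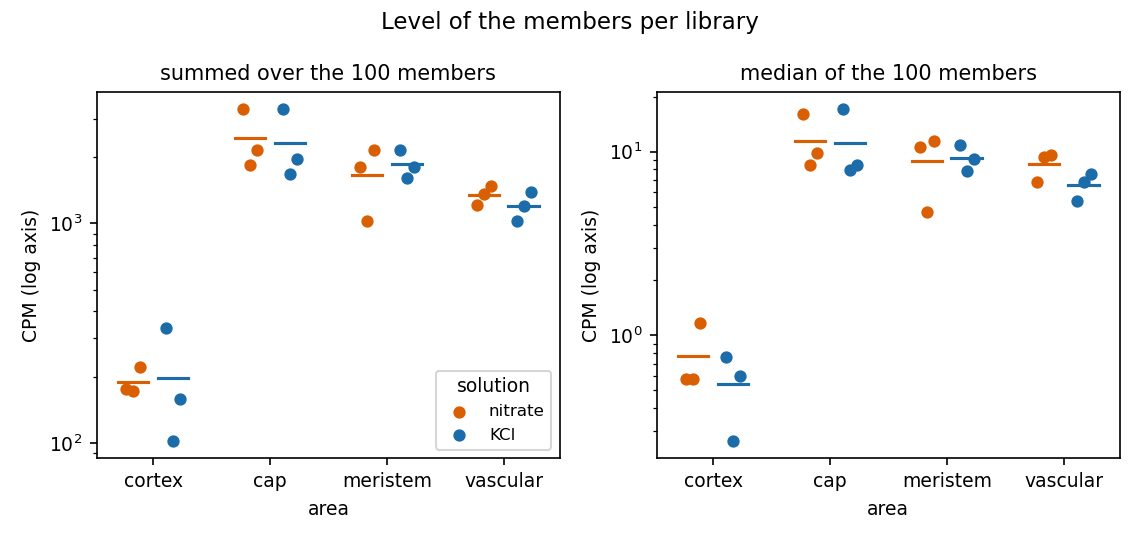
Summed level (left) and median level (right) of the 100 members in each library, in CPM on log axes, by area; points are libraries and lines are the means of 3 libraries with nitrate (orange) or KCl (blue). The 6 cortex libraries sum to 102.2 to 334 CPM, below the 1028 to 3330 CPM of the other 18.

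Low did not always mean absent. No member had 0 reads in all 6 cortex libraries, and 22 had 0 reads in at least 1 of them. The member with the lowest cortex mean, pp_207194, had only 4 reads, all in cortex nitrate replicate 1. Single cortex libraries had 0 reads for 3 to 13 members and for 1.76% to 2.52% of all transcripts, and the ranking favours low cortex counts. The cortex mean was below 0.1 CPM for 14 members, below 0.5 CPM for 45 and below 1 CPM for 56, while 11 members had 5 CPM or more there, up to 15.7 CPM. Outside the cortex every area mean of every member was at least 1.29 CPM. Single libraries there could still be low, since 6 members had fewer than 3 reads in at least 1 of them. Cap KCl replicate 3 and cap nitrate replicate 2 had 0 reads for 3 members each, and vascular nitrate replicate 2 for 1. The lowest of the 3 other means was 3.18 to 281 times the cortex mean without an added constant, with a median of 6.61 times. It exceeded 10 times for 32 members and 100 times for 2. For 63 of the 100 members all 6 cortex values lay below all 18 values from the other areas, as they did for 0.496% of all 51211 transcripts, and the ranking itself favours such transcripts. For the other 37 the values overlapped.

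**Figure D2:**
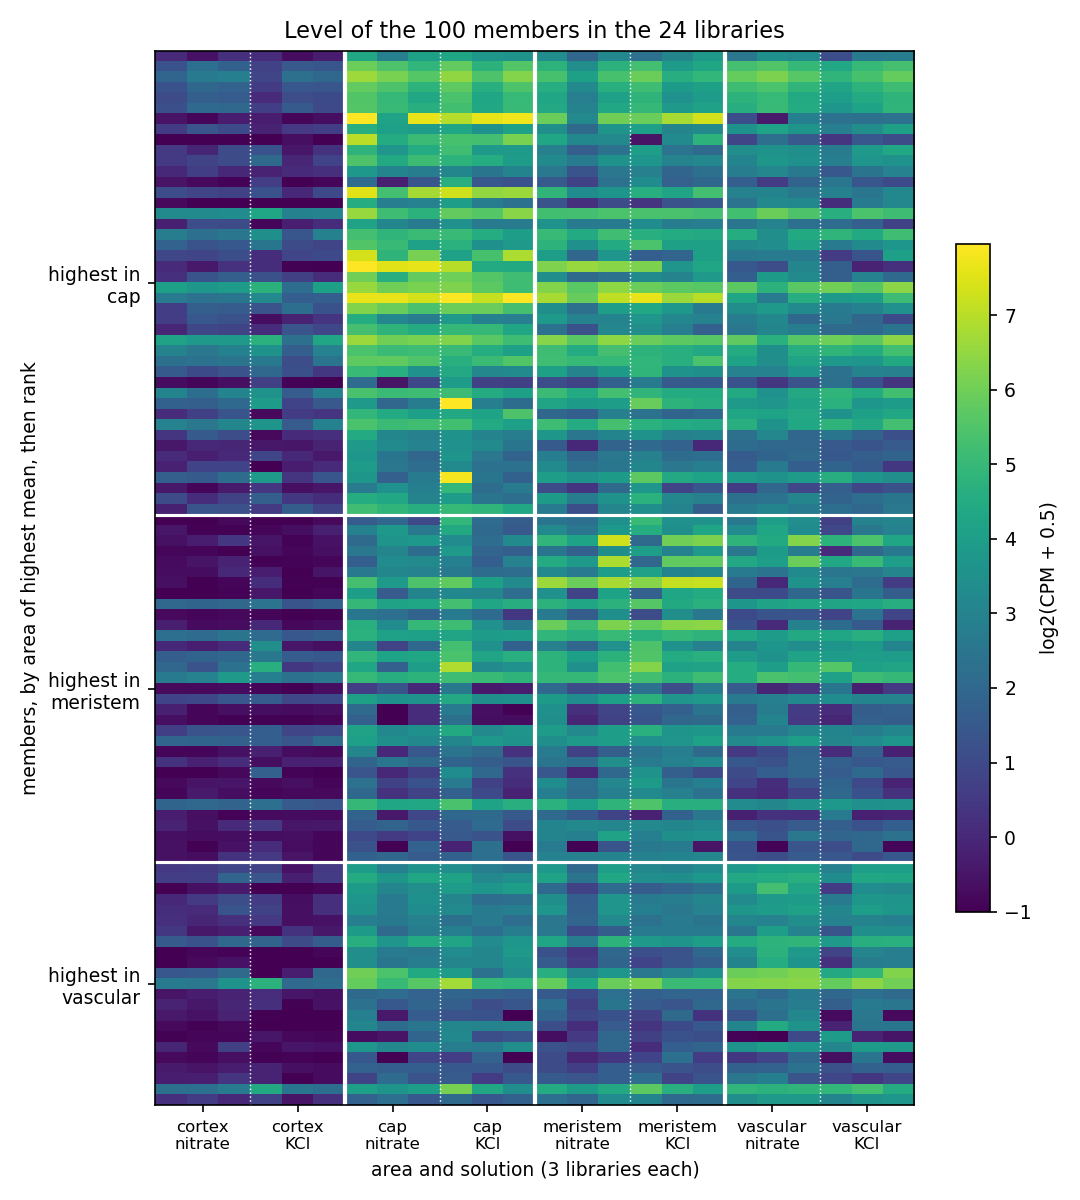
Level of the 100 members (rows) in the 24 libraries (columns, 3 per area and solution) as log2(CPM + 0.5). Rows are grouped by the area with the highest mean (44 cap, 33 meristem, 23 vascular) and ordered by rank within a group; the 6 cortex columns on the left are the dark ones, and single bright cells in the cap with KCl mark transcripts that were high in 1 library.

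The best-ranked member, pp_136381, was close to undetected in the cortex. It had 0 reads in 4 cortex libraries and 0.0741 and 0.0817 CPM in the other two, 8 reads in all. Its values (lowest, median and highest of 6 libraries) were 1.48, 3.1 and 29.7 CPM in the cap, 4.3, 10.9 and 32.0 CPM in the meristem, and 1.12, 7.77 and 15.8 CPM in the vascular tissue. No cortex value reached the range of another area, and the cap mean of 7.3 CPM leaned on KCl replicate 1. Its neighbours by number, pp_136380 and pp_136379, took ranks 2 and 4. The first of them had 0.0185, 0.0871 and 0.367 CPM in the cortex (lowest, median and highest), compared with 2.32, 6.27 and 21.1 CPM in the cap, 5.22, 11.9 and 23.0 CPM in the meristem and 1.39, 8.45 and 19.4 CPM in the vascular tissue. For pp_136379 the cortex values were 0, 0.0586 and 0.169 CPM, and the lowest value elsewhere was 0.549 CPM, in a vascular library. All 3 had their highest area mean in the meristem.

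The pair pp_78797 and pp_78798 (ranks 3 and 5) differed most between the 3 other areas among the 6 best-ranked members. In the cortex pp_78797 had 0.0377, 0.197 and 0.833 CPM (lowest, median and highest of 6 libraries). It had 3.83, 9.39 and 13.1 CPM in the cap, 3.77, 46.8 and 157 CPM in the meristem and 18.9, 27.5 and 78.0 CPM in the vascular tissue. The meristem range was wide because KCl replicate 1 had 3.77 CPM and nitrate replicate 3 had 157 CPM, and pp_78798 had its lowest and highest meristem values, 3.34 and 115 CPM, in the same libraries. At rank 6, pp_144924 had narrow ranges outside the cortex. It had 0, 0.163 and 0.519 CPM in the cortex, compared with 4.04, 5.67 and 8.16 CPM in the cap, 5.84, 8.64 and 17.1 CPM in the meristem and 4.88, 5.65 and 8.9 CPM in the vascular tissue.

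**Figure D3:**
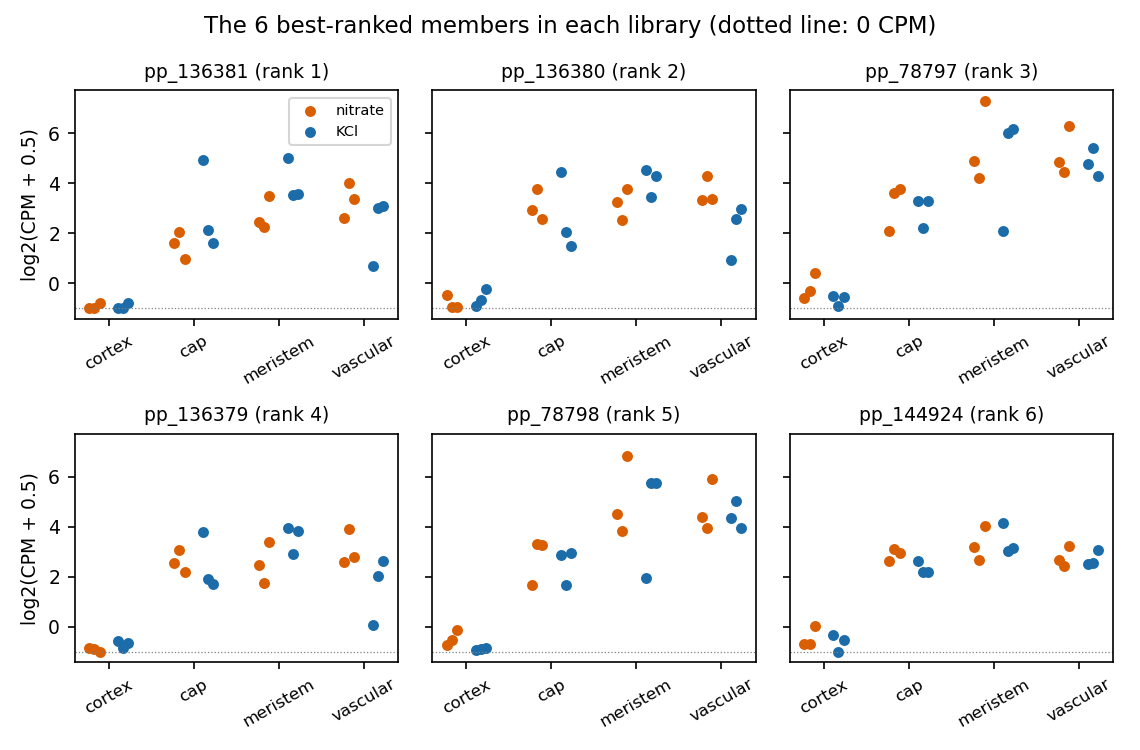
The 6 best-ranked members in each library as log2(CPM + 0.5), by area; points are single libraries with nitrate (orange) or KCl (blue), and the dotted line marks 0 CPM. Cortex points stay within 0.833 CPM in all 6 panels, and no cortex point reaches another area.

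The members were grouped by where they were highest. The cap had the highest mean for 44 members (39.7% of all transcripts have their highest mean in the cap), the meristem for 33 (25.3% of all) and the vascular tissue for 23 (23% of all). The lowest of the 3 other area means was in the vascular tissue for 53 members, in the meristem for 30 and in the cap for 17. No such share was taken over all transcripts, so these counts cannot be read as particular to the members. The 3 other areas were within a factor of 2 of each other for 44 members and at least 5-fold apart for 21.

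Members that peaked in the cap had the highest median levels in the cortex, the cap and their peak area. Their median means were 1.42 CPM in the cortex, 29.7 CPM in the cap, 12.2 CPM in the meristem and 8.63 CPM in the vascular tissue. The best-ranked of them, pp_162769, had 0.113, 0.436 and 0.667 CPM in the cortex (lowest, median and highest), compared with 6.99, 14.6 and 19.9 CPM in the cap, 3.34, 8.22 and 13.8 CPM in the meristem and 1.67, 6.17 and 10.9 CPM in the vascular tissue. In this group the cap exceeded the lowest other area by up to 51 times. Such a wide span was also found for pp_235113, with 0.169 ± 0.114 CPM in the cortex, compared with 167 ± 84.1 CPM in the cap, 77.4 ± 51.9 CPM in the meristem and 3.74 ± 2.33 CPM in the vascular area (SD, n = 6 each). Its cortex and vascular values overlapped, since vascular nitrate replicate 2 had 0.281 CPM and the highest cortex library had 0.296 CPM.

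Members that peaked in the meristem had the lowest median cortex mean, 0.21 CPM, compared with 6.36 CPM in the cap, 12.4 CPM in the meristem and 4.44 CPM in the vascular tissue. Those that peaked in the vascular tissue had medians of 0.351 CPM in the cortex, 7.63 CPM in the cap, 3.15 CPM in the meristem and 10.99 CPM in the vascular tissue. The best-ranked of these, pp_211901, had 0.17, 0.952 and 1.33 CPM in the cortex (lowest, median and highest), compared with 5.23, 8.25 and 14.7 CPM in the cap, 3.51, 8.91 and 15.6 CPM in the meristem and 7.03, 15.4 and 17.5 CPM in the vascular tissue. Its levels were separate from the cortex in every area but overlapped between the 3 other areas.

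The most abundant members outside the cortex were pp_120269 and pp_120266, judged by the lowest of their 3 other area means. In the cortex pp_120269 had 15.3 ± 7.25 CPM, compared with 65.4 ± 20.2 CPM in the cap, 62.4 ± 15.4 CPM in the meristem and 54.6 ± 19.4 CPM in the vascular area (SD, n = 6 each). For pp_120266 the levels were 15.7 ± 7.0, 65.9 ± 21.2, 62.8 ± 16.3 and 54.4 ± 19.2 CPM in the same areas. These 2 transcripts were clearly present in the cortex, with at least 217 reads of pp_120269 and 238 reads of pp_120266 in every cortex library. Cortex KCl replicate 1 was their highest cortex library, with 26.6 CPM of pp_120269 and 25.7 CPM of pp_120266, and vascular nitrate replicate 2 their lowest elsewhere, with 26.7 CPM of pp_120269 and 25.5 CPM of pp_120266. The cortex values of pp_120269 thus ended just below those of the other areas, and those of pp_120266 overlapped them.

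At the edge of the list the scores were smaller, as the ranking sets. The last members by rank, pp_115425 and pp_221112, had scores of 1.58 and 1.57, and the first transcripts outside it, pp_126650 and pp_142239, both had 1.56. The cortex means of these 4 transcripts were 0.185, 0.36, 1.43 and 0.147 CPM in that order. The lowest other means were 1.55, 2.05, 5.19 and 1.41 CPM, each in the vascular tissue. Without the added 0.5 CPM, these were 8.34, 5.69, 3.64 and 9.58 times the cortex mean. The median over the 100 members was 6.61 times, so the ratio itself was not always smaller at the edge. For pp_221112 the cortex stayed at or below 0.886 CPM, compared with at least 1.58 CPM elsewhere. In contrast, pp_115425 was nearly undetected in sets KCl 3 and nitrate 2, with at most 0.198 CPM in their 8 libraries, and had 0.42 to 6.13 CPM in the other 12 libraries outside the cortex, so that all 6 cortex values overlapped those of other areas.

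Many members were neighbours by ID number. When IDs no more than 5 numbers apart were joined, the 100 members formed 52 blocks, of which 29 held 1 member and 23 held 2 or more, 71 members in all. In 20 of these 23 blocks every member had its highest mean in the same area. After the group means were subtracted, members of the same block varied together across the 24 libraries, with a median Pearson's r of 0.948 over 95 pairs (0.0672 to 0.994), compared with 0.285 over the 4855 pairs from different blocks. These correlations are a description: all pairs share the same libraries, scaling and sets. Whether neighbouring IDs are copies, isoforms or alleles of 1 gene, and how the authors' counting divided reads among them, is not given in the sources used here, so the 100 members may stand for fewer genes. The blocks also took in 19 other transcripts of the table that were not members, and whose ranks reached 32608.

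The longest unbroken run was the 7 transcripts pp_152061 to pp_152067, all members, at ranks 8 to 34. Their area means had the same order throughout, lowest in the cortex and then rising through the meristem and the vascular tissue to the cap. The most abundant of the run, pp_152062, had 1.31, 3.99 and 6.76 CPM in the cortex (lowest, median and highest of 6 libraries), compared with 43.8, 74.2 and 99.6 CPM in the cap, 16.7, 34.8 and 61.8 CPM in the meristem and 28.6, 52.6 and 71.8 CPM in the vascular tissue. The least abundant, pp_152067, had 0.401, 0.536 and 1.07 CPM in the cortex, compared with 5.05, 7.78 and 13.2 CPM in the cap, 2.02, 4.91 and 7.0 CPM in the meristem and 2.22, 5.97 and 8.4 CPM in the vascular tissue. Means of the other five (pp_152061 and pp_152063 to pp_152066) were 1.15 to 2.46 CPM in the cortex and 9.86 to 43.5 CPM in the other areas. For all 7 the lowest other mean was 7.36 to 9.25 times the cortex mean, no cortex value overlapped another area, and the pairwise r was 0.828 to 0.99. The block with pp_120266 and pp_120269 held 6 members, pp_120266 to pp_120271, with an r of 0.944 to 0.993.

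Cortex libraries differed in how much of the members they held. The spread of a member over the 6 cortex libraries had a median SD of 0.452 on the log2(CPM + 0.5) scale, compared with 0.578 in the cap, 0.659 in the meristem and 0.54 in the vascular tissue. The added 0.5 CPM narrows this SD for the 56 members with a cortex mean below 1 CPM, so the areas' spreads cannot be compared on it. The SD was smallest for pp_124498 (SD 0.0726), which had 7 reads in all and at most 0.0604 CPM in any cortex library, compared with at least 5.32 CPM in the cap, 0.845 CPM in the meristem and 1.27 CPM in the vascular tissue. It was largest for pp_151072 (SD 1.53), which had 10.3 CPM in cortex KCl replicate 1 and 0.143 to 0.574 CPM in the other 5 cortex libraries. The same transcript was also highest in set KCl 1 in the cap (38.0 CPM) and the meristem (42.9 CPM), where its medians were 5.74 and 8.99 CPM.

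Cortex KCl replicate 1 was the highest cortex library for 45 of the 100 members and cortex nitrate replicate 3 for 26, while cortex KCl replicate 2 was the lowest for 38. In cortex KCl replicate 1, 19 members were more than 1 on the log2 scale above the mean of the other 5 cortex libraries, and so were 5.14% of all transcripts. The 100 transcripts most restricted to the meristem by the mirrored score summed to 693 CPM in this library, compared with 255 to 422 CPM in the other 5 cortex libraries. In the same set they also summed to 790 CPM in the vascular library (211 to 452 CPM in the other 5 vascular libraries). Their sum in its cap library was 514 CPM (131 to 386 CPM in the other 5 cap libraries). In cortex KCl replicate 1, transcripts most restricted to the cap summed to 282 CPM (233 to 545 CPM in the other cortex libraries) and those most restricted to the vascular tissue to 29.3 CPM (28.9 to 157 CPM). Their part in the members' levels was not tested.

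The list depended on that library. When it was left out, 50 of the 100 members stayed and 50 other transcripts took the places of the rest. The 50 members that left moved to ranks 106 to 225. Their value in cortex KCl replicate 1 was a median of 1.01 times the mean of the other 5 cortex libraries. The entering transcripts had a median of 27.8 CPM in cortex KCl replicate 1 and of 0.434 CPM for the mean of the other 5. All 50 were highest in cortex KCl replicate 1. A transcript could enter only if its value there exceeded the mean of the other 5, so this contrast follows from the selection. The entering transcripts were high throughout root-tip set KCl 1. Their median was 82.4 CPM in its cap library, 58.9 CPM in its meristem library and 21.4 CPM in its vascular library. For the mean of the other 5 sets the medians were 2.71, 1.26 and 2.74 CPM. Leaving out the cortex library alone thus kept the high values of that set in the other 3 areas. When all 4 libraries of set KCl 1 were left out, 81 members stayed, and 88 to 93 stayed when each of the other 5 sets was left out. Across the 6 rankings without a set, 61 members stayed in every one.

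**Figure D4:**
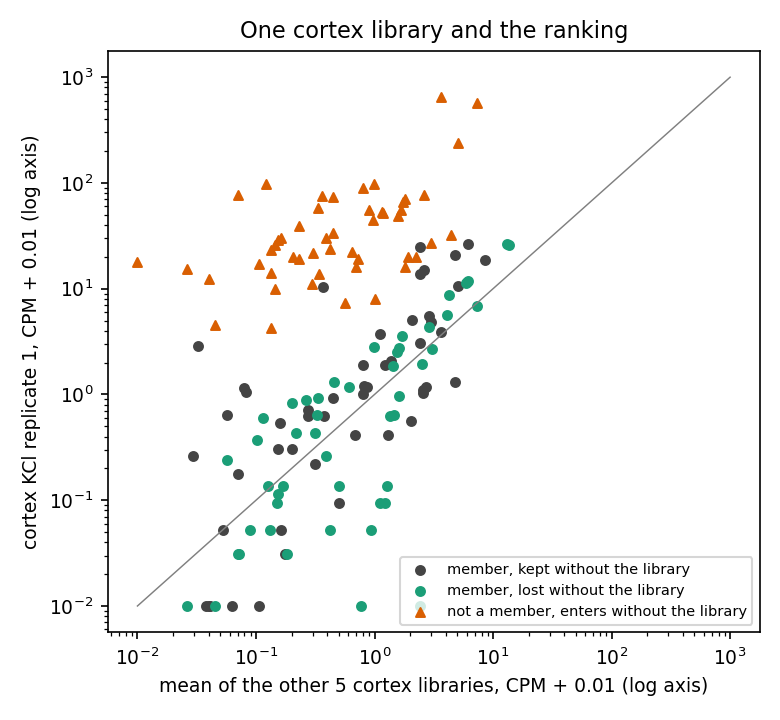
Level in cortex KCl replicate 1 against the mean of the other 5 cortex libraries, in CPM + 0.01 on log axes with the line of equality. Circles are the members that stayed (50, black) or left (50, green) when the ranking was made without this library. Triangles are the 50 transcripts that then entered, all of which lie above the line, as their selection requires.

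Within root-tip sets the pattern held for most members. The cortex value was the lowest of the 4 areas in 93 to 100 members, depending on the set, and in all 6 sets for 91 members, as it was for 1.78% of all transcripts. The ranking used these same values, so the counts describe the members and test nothing. Levels outside the cortex differed between sets by a median of 2.19 times from the lowest to the highest set. For 11 members more than 40% of the summed set levels outside the cortex came from 1 set (an even share would be 16.7%), and for 9 of these it was set KCl 1. The extremes, named after their values had been seen, were pp_155776 and pp_179338, with 63.8% and 62% in set KCl 1. In the cap pp_155776 had 230 CPM in KCl replicate 1 and 2.87 to 12.98 CPM in the other 5 libraries, and pp_179338 had 248 CPM and 3.41 to 14.0 CPM.

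A ranking in the libraries of 1 solution allowed a test in those of the other. The 100 best-ranked transcripts of the 12 KCl libraries, 79 of them members, were tested in the 12 nitrate libraries with limma on log2(CPM + 0.5), and a transcript was called low when the cortex was below each of the 3 other areas with an adjusted p below 0.05. Of these 100, 78 were called low, compared with 1.06% of the 49493 transcripts tested. Their median cortex difference in the nitrate libraries was -2.67 against the cap, -2.29 against the meristem and -2.24 against the vascular tissue on the log2 scale, compared with 0.06, -0.02 and -0.03 over all transcripts. In the other direction, the 100 best-ranked transcripts of the nitrate libraries, 76 of them members, were tested in the KCl libraries. There 64 were called low, compared with 0.520% of 48868 transcripts, with median differences of -2.91, -2.80 and -2.02 against the same areas. Against single areas in the nitrate libraries, 95 of the KCl-ranked transcripts were called lower in the cortex than in the cap (31.0% of all transcripts tested), 90 than in the meristem (9.73%) and 85 than in the vascular tissue (8.37%). In the KCl libraries these counts for the nitrate-ranked transcripts were 87 for the cap (26.4%), 84 for the meristem (5.55%) and 68 for the vascular tissue (6.19%). The first count rests on the KCl ranking: 32 of 100 were called when cortex KCl replicate 1 was left out of it, and 75 when all of set KCl 1 was. In edgeR's quasi-likelihood test on recovered reads 81 of the KCl-ranked (1.19% of all transcripts) and 60 of the nitrate-ranked transcripts (0.542%) were called. Blocking on the set in limma gave 87 (1.70% of all) and 83 (0.794%). Both lists hold neighbours by ID number that varied together, such as pp_136379 to pp_136381, so the calls are not independent of each other.

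The same ranking rule gave lower scores for the cortex than for any other area. The first and the hundredth transcript scored 3.89 and 1.57 for the cortex, 6.79 and 4.03 for the cap, 4.72 and 2.16 for the meristem and 8.01 and 4.12 for the vascular tissue. The number of transcripts with a score above 1 was 302 for the cortex, compared with 9634 for the cap, 632 for the meristem and 2082 for the vascular tissue. For a score above 3 it was 6, compared with 955, 24 and 284. These counts describe 1 table, and the differences between areas were not tested.

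The ranking averaged both solutions with equal weight, so the effect of nitrate was not used by it. In the mean over the 4 areas 2 of 100 members were called by limma, both higher with nitrate, compared with 1.90% of all 51044 transcripts tested called higher, 1.05% called lower and 2.94% called in either direction. Unadjusted p-values below 0.05 were found for 7 members (17.96% of all transcripts). By edgeR 0 members were called (2.88% of all), with 16 at an unadjusted p below 0.05 (17.3%).

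Within single areas no member was called by either tool. In the cortex limma called 0 members (0.208% of all transcripts), with 5 at an unadjusted p below 0.05 (5.00%), and edgeR called 0 (0.0999%), with 14 unadjusted (4.73%). The members were chosen for low cortex levels, and 56 had a cortex mean below 1 CPM. At such levels a call was hard to reach, so the cortex counts cannot be read against the shares of all transcripts. In the cap limma called 0 (0.907%), with 2 unadjusted (10.04%), and edgeR 0 (0.231%), with 4 unadjusted (10.8%). The meristem had 0 calls by limma (0.0784%), with 1 unadjusted (4.45%), and 0 by edgeR (0.0333%), with 0 unadjusted (4.77%). The vascular tissue had 0 calls by limma (0.415%), with 9 unadjusted (10.5%), and 0 by edgeR (0.153%), with 5 unadjusted (8.95%). The F test of the difference between the 4 nitrate effects called 0 members by limma (0.0980%), with 5 unadjusted (4.24%), and 0 by edgeR (0.0118%), with 2 unadjusted (3.47%).

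Nitrate differences over the members were small on average. The median was 0.13 on the log2 scale in the cortex, 0.14 in the cap, -0.20 in the meristem and 0.27 in the vascular tissue, compared with a median between -0.0083 and 0.024 over all transcripts in the same areas. A single member's difference in an area carried a median standard error of 0.47. Positive differences were found for 67 members in the cortex (50.03% of all transcripts), 65 in the cap (48.7%), 32 in the meristem (47.6%) and 62 in the vascular tissue (52.99%). The members share the same libraries and moved together in them. From 4 members (meristem nitrate replicate 2) to 88 (cap nitrate replicate 1) lay above their group mean in a single library. The medians and counts are thus a description and cannot be read as separate observations of a nitrate effect. Cortex differences lay between -0.88 and 1.45, and for the 56 members with a cortex mean below 1 CPM this scale understates a change by a given factor.

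**Figure D5:**
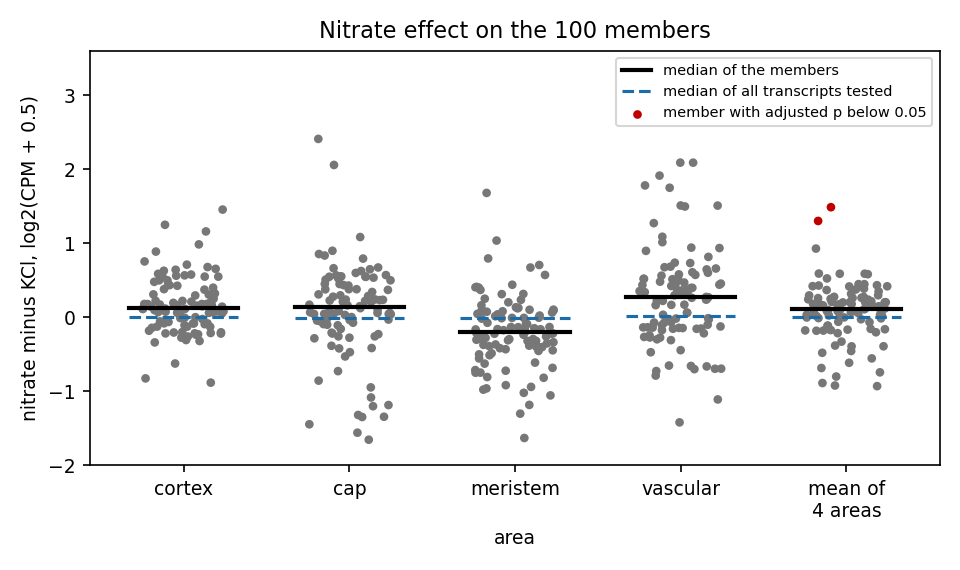
Nitrate minus KCl for each of the 100 members on the log2(CPM + 0.5) scale, by area and as the mean of the 4 areas. Black lines are medians of the members, dashed blue lines medians of all 51044 transcripts tested, and red points the 2 members with an adjusted p below 0.05 by limma, both in the mean of the areas.

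The 2 members called in the mean were pp_235116 and pp_236806. In the cap pp_235116 had 243, 188 and 198 CPM with nitrate and 128, 21.5 and 21.2 CPM with KCl (replicates 1 to 3). In the meristem it had 75.0, 93.9 and 82.5 CPM with nitrate and 72.5, 12.3 and 18.7 CPM with KCl. The solutions did not overlap in these 2 areas, where KCl replicate 1 was the closest to the nitrate libraries. In the vascular tissue it had 2.28, 1.65 and 7.86 CPM with nitrate and 2.81, 0.433 and 0.652 CPM with KCl, and in the cortex 0.586, 0.262 and 0.704 CPM with nitrate and 0.633, 0.0189 and 0 CPM with KCl, with overlap in both. Its mean difference was 1.49 ± 0.34 (SE) on the log2 scale. Here limma's adjusted p was 0.0211 and edgeR's 0.112, and the difference was positive in 4 of 4 areas.

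The vascular-peaking pp_236806 had 64.3, 42.8 and 21.1 CPM in the cap with nitrate and 15.1, 4.64 and 9.96 CPM with KCl. It had 24.5, 8.08 and 12.4 CPM in the meristem with nitrate and 5.51, 7.28 and 10.9 CPM with KCl. In the vascular tissue the values were 61.0, 65.4 and 75.5 CPM with nitrate and 20.5, 29.0 and 76.5 CPM with KCl, and in the cortex 2.22, 2.38 and 3.74 CPM with nitrate and 0, 0.321 and 3.43 CPM with KCl. The solutions were apart in the cap and overlapped in the other 3 areas. Its mean difference was 1.30 ± 0.31 (SE), positive in 4 of 4 areas, and its adjusted p was 0.0283 in limma and 0.146 in edgeR. The call of pp_236806 was lost when any 1 of 6 libraries was left out (cap KCl 2, cap nitrate 1, meristem nitrate 1, vascular KCl 1, vascular KCl 2 or cortex nitrate 3). The limma fit treats the 4 libraries of a set as independent, although they deviated together. With 1 mean per set, limma gave adjusted p-values of 0.761 for pp_235116 and 0.714 for pp_236806.

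No member was called lower with nitrate. The smallest limma p-values for a negative mean difference belonged to pp_235113 and pp_151071, at -0.89 ± 0.43 and -0.80 ± 0.38 (SE) on the log2 scale, with adjusted p-values in limma of 0.279 for pp_235113 and 0.28 for pp_151071. In edgeR they were 0.673 for pp_235113 and 0.103 for pp_151071, the smallest edgeR value of any member for the mean. By number, pp_235113 lies 3 from pp_235116, and both had their highest mean in the cap. Their deviations from the group means correlated at an r of 0.0672 over the 24 libraries. In the cap pp_235113 had 247, 17.4 and 201 CPM with nitrate and 124, 195 and 219 CPM with KCl, so the low value of nitrate replicate 2 stood against 188 CPM of pp_235116 in the same library. For pp_151071 the cap values were 2.09, 0.504 and 1.13 CPM with nitrate and 9.63, 3.59 and 0.709 CPM with KCl, and the highest libraries in the cortex, the cap and the meristem all belonged to set KCl 1.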

How the data were processed

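Tools named in the submitters' processing notes are bcl2fastq and BWA, without versions. How reads were counted, against which transcripts, and how counts were scaled is not given in the sources used here. Values in the deposited table are a count signal under the name CPM, which the authors scaled by more than library size, since columns summed to 786966 to 1173829. In all 24 columns 100% of values were whole multiples of 1 read within 0.02 reads. The tests had been planned for CPM and were kept, since both need a log scale. Cells of 0 were kept, and no library was dropped or imputed in the main tests.

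Tests ran in limma 3.58.1 (R 4.3.3) on log2(CPM + 0.5), with a variance trend and Benjamini-Hochberg adjustment over every transcript that reached 1 CPM in 3 or more of the libraries fitted. All 24 libraries entered 8 group means for nitrate effects, and the 12 libraries of 1 solution entered 4 area means for the tests between solutions. An adjusted p below 0.05 was a call. edgeR 4.0.16 ran on recovered reads. Procedures were tested on simulated data.

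Deviations from group means correlated at 0.279 to 0.694 in all 36 pairs of same-numbered libraries between areas, so the numbers pair areas within a solution; the pairing comes from the values, not the labels. Between solutions r was -0.0429 to 0.298, and 6 of 12 pairs passed 0.1. It was 0.103 to 0.298 for pairs numbered 1, -0.0153 to 0.205 for number 2 and -0.0429 to 0.00588 for number 3. Whether the numbers pair solutions cannot be settled from these values. No columns were identical, and replicate pairs differed beyond sampling noise (chi-square per transcript of 34.7 to 170.4). The members, the ranking and the tests were chosen with earlier results of these data known. Transcripts were named by rank (1 to 6, 99 to 102), best rank per peak area, highest level outside the cortex, smallest nitrate p-values, extreme cortex spread and longest ID run.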

Additional observations from a re-analysis of the deposited data

Results flagged for a closer look

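Dixon's criterion for a single outlying library was applied over the 6 libraries of an area to the summed and median level of the members and to the 25 named members. It marked 13 of 108 groups, and 9 of the 13 lay in root-tip set KCl 1. Chance marks about 1 in 20 independent groups, but the number marked here cannot be read against that: pp_151072 was named for its large cortex spread, and it and its neighbour pp_151071 gave 6 of the 13 marks.

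In cap KCl replicate 1, pp_136381 had 29.7 CPM, pp_151071 had 9.63 CPM and pp_151072 had 38.0 CPM. In meristem KCl replicate 1, pp_136381 had 32.0 CPM, pp_151071 had 11.7 CPM and pp_151072 had 42.9 CPM. In cortex KCl replicate 1, pp_115425 had 0.591 CPM, pp_151071 had 2.85 CPM and pp_151072 had 10.3 CPM. Set KCl 1 was thus the outlying one for the neighbours pp_151071 and pp_151072 in each area but the vascular tissue.

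Nitrate libraries gave the remaining marks. Cap nitrate replicate 1 had 13.2 CPM of pp_152067, and meristem nitrate replicate 1 had 24.5 CPM of pp_236806. Cortex nitrate replicate 3 had 0.833 CPM of pp_78797, and vascular nitrate replicate 3 had 7.86 CPM of pp_235116. The summed and median levels of the members had no outlying library by this criterion in any area. Groups of 3 libraries were not examined in this way.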

How the results depend on the processing

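Of the members, 69 to 98 stayed under another pseudocount, scaling or average in the ranking, 79 and 76 in the KCl or nitrate libraries alone, and 50 to 100 when 1 library was left out, with 50 only without cortex KCl replicate 1 and 87 to 100 otherwise. The members called in the mean nitrate effect numbered 1 with a pseudocount of 0.1, 0 with 1 mean per root-tip set, 0 by edgeR, 1 without set KCl 1 and 1 to 2 when 1 library was left out. The cap had 1 call with a pseudocount of 2 and 1 without set KCl 1, the meristem had 1 without set KCl 1, and the vascular tissue had 2 with a pseudocount of 2. Leaving out 1 library gave 0 to 1 calls in the cap (1 without cap KCl replicate 1) and 0 to 2 in the vascular tissue (2 without vascular KCl replicate 3). Over 33 alternatives the adjusted p ranged from 7.14e-06 to 0.761 for pp_235116 and from 0.00321 to 0.714 for pp_236806, which lost its call in 10 of them. Transcripts ranked with KCl and called low in the nitrate libraries numbered 32 to 80 when 1 library was left out (32 without cortex KCl replicate 1), and those ranked with nitrate 48 to 67. With the replicate number as a block, 87 and 83 were called low in place of 78 and 64. With this block 2 members were called for the mean nitrate effect. For single areas the block was fitted in the 6 libraries of each area alone, and 0 members were called. The F test was instead blocked on the root-tip set and called 0. The cause of these shifts was not tested. Leaving out set KCl 1 was chosen after seeing the data. Depth limits members whose cortex level is a few reads.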
